A study of Bos taurus with 12 samples.

Results

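HSD11B1 and 7 further genes of local glucocorticoid action were examined in the endometrium of ageing cows, among the 26323 transcripts measured on the arrays. HSD11B1 was chosen from these arrays, as the transcript with the largest drop in mean from Young to Old cows among those with every Old cow below every Young cow, so its values in that comparison are a description with no test. The other members were taken for their role, with earlier results of these data already known. They were H6PD and HSD11B2 as partner enzymes, NR3C1 and NR3C2 as receptors, and FKBP5, TSC22D3 and PER1 as genes cortisol induces through its receptor. Each of the 8 genes was found on the arrays as 1 transcript. Endometrial biopsies had been taken on Day 15 of a synchronised oestrous cycle from the horn ipsilateral to the corpus luteum, between the caruncles, and the RNA of each cow was hybridised in 1 colour to its own array. The Old group (OF in the paper) held 4 nulliparous cows of 13 to 14 years, and the Young group (YF) held 4 primiparous cows of 4 to 5 years. All 8 were Holstein somatic clones of 1 donor cow, which removes most genetic variation within the groups and limits them as a model of other cows. Age and parity cannot be told apart. The labels name a further group, Contemporary, with no age, parity or genotype, so whether these cows were clones is not known, and state that 1 of its 4 cows, 1111, was left out for a divergent phenotype, so 3 were compared. The arrays lay on 2 slides. Slide 1 held Young 1070 and 1072, Old 0245 and Contemporary 1111, and slide 2 held the remaining 8. The share of spots well above background ran from 71.6% to 74.9% over the arrays, with 0 saturated spots.

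Cortisol is active and cortisone is not, and the balance between them is set inside the cell. The enzyme 11β-HSD1, encoded by HSD11B1, makes cortisol from cortisone in the endoplasmic reticulum, where H6PD supplies the NADPH it needs, while 11β-HSD2, encoded by HSD11B2, inactivates cortisol. In the ruminant endometrium HSD11B1 is expressed in the epithelium and is regulated by progesterone, prostaglandins and interferon tau, and the cortisol it makes takes part in preparing the uterus for the elongating conceptus.

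Levels are log2 intensities relative to the 75th percentile of each array, which is 0 on this scale, and each transcript is the mean of its probes. HSD11B1 lies on chromosome 16 (chr16:75463612-75508770, UMD3.1) and was read by 2 probes of 60 bases in its coding sequence. Their sequences are printed because the difference that chose the gene rests on them. Capitals mark the 5 bases that the end of the first shares with the start of the second. So short a match does not show that the probes overlap in the transcript.
HSD11B1 probe 1: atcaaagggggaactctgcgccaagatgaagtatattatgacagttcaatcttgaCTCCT
HSD11B1 probe 2: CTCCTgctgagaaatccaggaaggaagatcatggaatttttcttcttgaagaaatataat

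In the Young cows the level of HSD11B1 was -3.61 in 1069, -3.01 in 1070, -3.16 in 1072 and -4.14 in 1127. In the Old cows it was -5.01 in 0233, -5.01 in 0234, -4.91 in 0245 and -7.22 in 2258. In the Contemporary cows it was -5.93 in 1068, -4.68 in 1128 and -4.40 in 1129. Every Old cow and each of these 3 Contemporary cows was therefore below every Young cow, the Old and Contemporary cows overlapped, and Old 2258 stood far below the other 10 cows compared. Contemporary 1111, not compared, had a level of -3.62, above Young 1127. The group means ± SD were -3.48 ± 0.51 in Young (n = 4), -5.00 ± 0.82 in Contemporary (n = 3) and -5.54 ± 1.12 in Old (n = 4). Contemporary and Old, the neighbours at the low end of this order, did not differ beyond their spread.

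**Figure D1:**
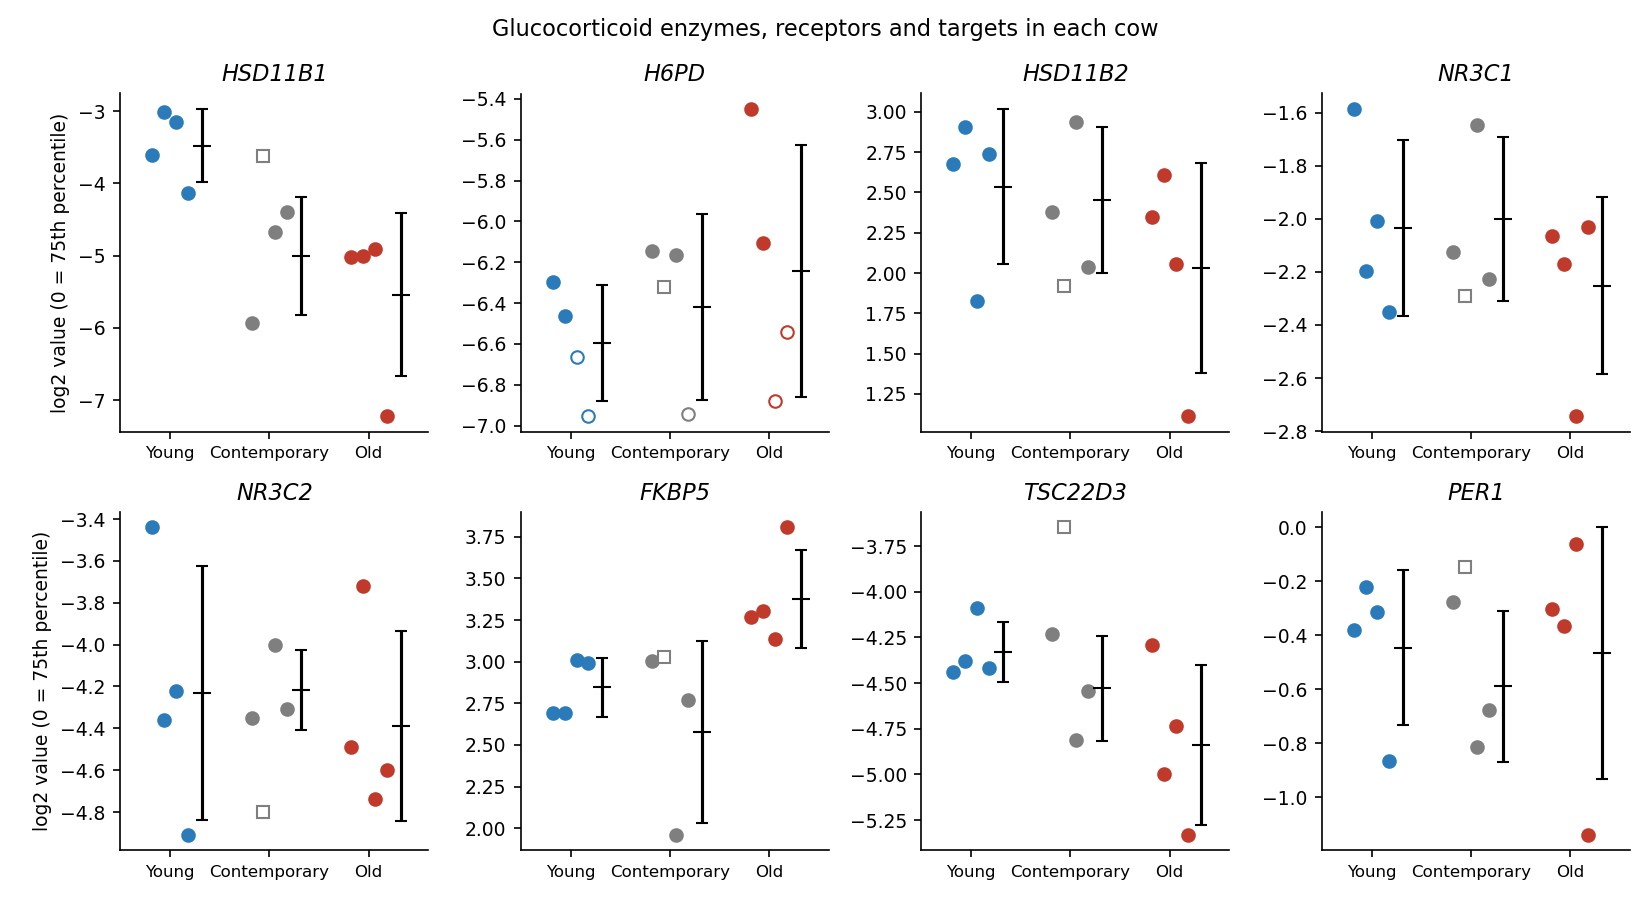
Level of each of the 8 transcripts in each cow, as log2 intensity relative to the 75th percentile of the array (vertical axis, with its own scale in each panel), for the 3 groups. Circles are cows, the open square is Contemporary 1111, which enters no mean, open circles are cows with no probe of the transcript well above background, and bars give the mean ± SD. For HSD11B1 the 4 Young cows, between -4.14 and -3.01, lie above all other filled circles, and for FKBP5 the 4 Old cows lie above all others.

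The mean of HSD11B1 was 4.18-fold lower in Old than in Young, a log2 difference of -2.06, and the lowest Young cow stood 0.77 above the highest Old cow. It was the largest drop among the 118 transcripts with all Old below all Young, followed by ASZ1 at -1.95 and COL4A3 at -1.92. Another 184 transcripts had all Old above all Young, so that 1.53% of the 19755 transcripts tested were separated in either direction. In this comparison limma called 0% of these transcripts at an adjusted p of 0.05, with 478 at an unadjusted p under 0.05. FCROS, the fold change rank rule of the methods, called 4.94% of all transcripts, HSD11B1 among them. Nothing is read from that share, because the comparison chose the gene and because the limits of this rule largely fix the share it calls. Without Old 2258 the log2 difference was -1.50. Within slide 2 it was -1.88 and within slide 1, with 1 Old and 2 Young cows, -1.83. It was -0.81 with another background correction of the spots (normexp), so its size depends on the correction used.

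Contemporary cows had taken no part in the choice of HSD11B1, but the Young and Old cows had, so their comparisons are also given without a test. The mean was 2.88-fold lower in Contemporary than in Young, a log2 difference of -1.53, with a gap of 0.27 between the groups. FCROS called it among 4.23% of all transcripts, from which nothing is read either, and limma called 0% of 19993, with 606 at an unadjusted p under 0.05. The difference was -1.13 within slide 2, -0.75 with normexp, -1.06 without Contemporary 1068 and -1.18 with cow 1111 included, where the groups overlapped. Against Old, the Contemporary mean was 0.53 higher with overlapping groups, and the difference was -0.03 without Old 2258, 0.05 with normexp, 0.74 within slide 2, 0.88 with cow 1111 included and 0.9985 without Contemporary 1068. FCROS called 5.40% of transcripts there, HSD11B1 not among them, and limma called 0% of 19914, with 911 at an unadjusted p under 0.05. The comparisons share their groups and are not independent of each other. No separation of Contemporary cows from another group is read as a result, here or below, because its share over all transcripts is not given.

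Both probes of HSD11B1 gave the same order of Young above Contemporary above Old. Probe 1, well above background on 12 of 12 arrays, differed by -1.87 between Old and Young and by -1.52 between Contemporary and Young. Probe 2, well above background on 10 of 12 arrays, differed by -2.26 and -1.54. It was not well above background in Old 2258 and Contemporary 1068, the cows with the lowest levels, so the level in these cows is less certain than in the others.

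H6PD, the source of NADPH for 11β-HSD1, was close to background. A probe was well above it on 7 of 12 arrays, 2 in each of the Old, Young and Contemporary groups, and the gene therefore did not enter limma: 7 of the 8 genes passed its filter in each comparison. Its mean level was -6.59 ± 0.28 in Young, -6.42 ± 0.46 in Contemporary and -6.24 ± 0.62 in Old. The 3 groups overlapped, and the Old cows ranged from -6.88 to -5.45. Contemporary cows differed from Young by 0.18 (exact permutation p = 0.486, two-sided, n = 3 and 4) and from Old by -0.17 (exact permutation p = 0.714). As each cow was left out, the first ranged from 0.04 to 0.44 and the second from -0.39 to 0.09. With normexp the first was 0.01. The Old mean was 0.35 above the Young mean, or 0.09 without Old 0233, but the difference was -0.32 in slide 1. Such values near background do not show whether the supply of NADPH differed.

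HSD11B2, which inactivates cortisol, was well above background on all 12 arrays. Its level was 2.67 in Young 1069, 2.90 in 1070, 1.83 in 1072 and 2.74 in 1127. The Old cows had 2.35 in 0233, 2.61 in 0234, 2.05 in 0245 and 1.11 in 2258. The Contemporary cows had 2.38 in 1068, 2.93 in 1128 and 2.04 in 1129. Old 2258 was the lowest of all cows for HSD11B2 as for HSD11B1, and the 3 groups overlapped. The Old mean differed from the Young mean by -0.51, within the spread of single cows, by -0.20 without Old 2258, and by 0.07 when arrays were weighted by their quality. Contemporary cows differed from Young by -0.09 (95% confidence interval -0.82 to 0.65) and from Old by 0.42 (-0.49 to 1.33), and neither difference passed in limma (adjusted p = 0.9999 and 0.9453). The first of these was 0.24 with array weights. The second was 0.11 without Old 2258 and 0.18 without Contemporary 1128.

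The glucocorticoid receptor, NR3C1, through which cortisol acts in most cells, lies on chromosome 7 (chr7:56235966-56350171, UMD3.1). Its 2 probe sequences are shown because each was printed in 2 places on the array, which gives the error of a single spot.
NR3C1 probe 1: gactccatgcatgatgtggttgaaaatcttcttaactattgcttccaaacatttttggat
NR3C1 probe 2: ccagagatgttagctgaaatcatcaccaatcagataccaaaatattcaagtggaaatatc

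Over the 12 arrays the copies of a sequence differed by a median of 0.09 and at most by 0.26 on the log2 scale. The level of NR3C1 ranged from -2.35 to -1.59 in Young, from -2.23 to -1.65 in Contemporary and from -2.74 to -2.03 in Old, so the groups overlapped. Contemporary cows differed from Young by 0.04 (95% confidence interval -0.52 to 0.59) and from Old by 0.25 (-0.32 to 0.82), and within slide 2 these were -0.03 and 0.09. The second was 0.08 without Contemporary 1128. The Old mean was -0.22 from the Young mean, -0.12 in slide 2 and -0.64 in slide 1, where Old 0245, the lowest of all cows, is the only Old cow. It was -0.05 without Old 0245 and -0.07 without Young 1069.

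The mineralocorticoid receptor, NR3C2, binds cortisol as well as aldosterone where 11β-HSD2 does not remove it. Its level ranged from -4.91 to -3.44 in Young, from -4.35 to -4.00 in Contemporary and from -4.74 to -3.72 in Old. All 3 groups overlapped, and the Young cows had the widest spread. Contemporary cows differed by 0.01 from Young (95% confidence interval -0.74 to 0.77) and by 0.17 from Old (-0.46 to 0.80). The signs of these differences depended on the processing: with normexp they were -0.03 and -0.04, and within slide 2 the first was -0.04. Old differed from Young by -0.16, by 0.39 with array weights, and from -0.38 to 0.11 as each cow was left out. For neither receptor did a difference pass in limma, where the adjusted p of the members tested lay between 0.9116 and 0.9999.

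FKBP5 encodes a co-chaperone that lowers the affinity of the glucocorticoid receptor for cortisol, and its transcription is induced by the receptor. Its level was 2.69 in Young 1069, 2.69 in 1070, 3.01 in 1072 and 2.99 in 1127. It was 3.27 in Old 0233, 3.30 in 0234, 3.13 in 0245 and 3.81 in 2258. It was 3.00 in Contemporary 1068, 1.96 in 1128 and 2.77 in 1129. FKBP5 thus ran opposite to HSD11B1 between Old and Young: every Old cow was above every Young and every Contemporary cow, and Old 2258, lowest for HSD11B1, was highest for FKBP5.

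The Old mean of FKBP5 was 1.45-fold above the Young mean, a log2 difference of 0.53 with a gap of 0.13, and 0.39 without Old 2258. This is a description, since the comparison had chosen HSD11B1, and FCROS did not call it, its fold change of 1.46 being under the 1.5 required. Contemporary cows had a mean 1.74-fold below that of Old, a log2 difference of -0.80 (95% confidence interval -1.49 to -0.12). The exact permutation p was 0.0286 (two-sided, n = 3 and 4), which is the smallest that these group sizes allow and the only 1 of 14 such tests at 0.05 or less, the other 13 being at 0.343 or above. It did not pass in limma over all transcripts (adjusted p = 0.9116). The difference was -0.88 within slide 2, and it was -0.49 without Contemporary 1128, the cow with the lowest level. Both probes gave it, at -0.77 and -0.83. Between Contemporary and Young the difference was -0.27 (95% confidence interval -0.88 to 0.34), and 0.04 without Contemporary 1128.

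TSC22D3 encodes GILZ, a mediator of the anti-inflammatory action of glucocorticoids. Its level ranged from -4.44 to -4.09 in Young, from -4.81 to -4.23 in Contemporary and from -5.33 to -4.29 in Old. Of the 4 Old cows 3 were below all Young cows, and Old 0233 was not, so the groups overlapped. The Old mean differed from the Young mean by -0.51, and by -0.12 with normexp. Contemporary cows differed from Young by -0.20 (95% confidence interval -0.64 to 0.24), or 0.02 with cow 1111 included, and from Old by 0.31 (-0.34 to 0.96), or 0.001 with normexp and 0.15 without Old 2258. TSC22D3 and FKBP5, both induced through the receptor, thus had means of opposite order in Old and Young.

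PER1, a clock gene with an early response to glucocorticoids, had a difference of -0.02 between Old and Young, which ranged from -0.16 to 0.20 as each cow was left out. Its level ranged from -0.87 to -0.22 in Young, from -0.81 to -0.28 in Contemporary and from -1.14 to -0.06 in Old. The groups overlapped throughout, and Old 2258 and Young 1127 had the lowest levels of their groups for PER1 as they had for HSD11B1, while Contemporary 1068, lowest of its group for HSD11B1, was highest for PER1. Contemporary cows differed by -0.14 from Young (95% confidence interval -0.65 to 0.36) and by -0.12 from Old (-0.79 to 0.55), and these values were 0.03 and 0.01 within slide 2.

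**Figure D2:**
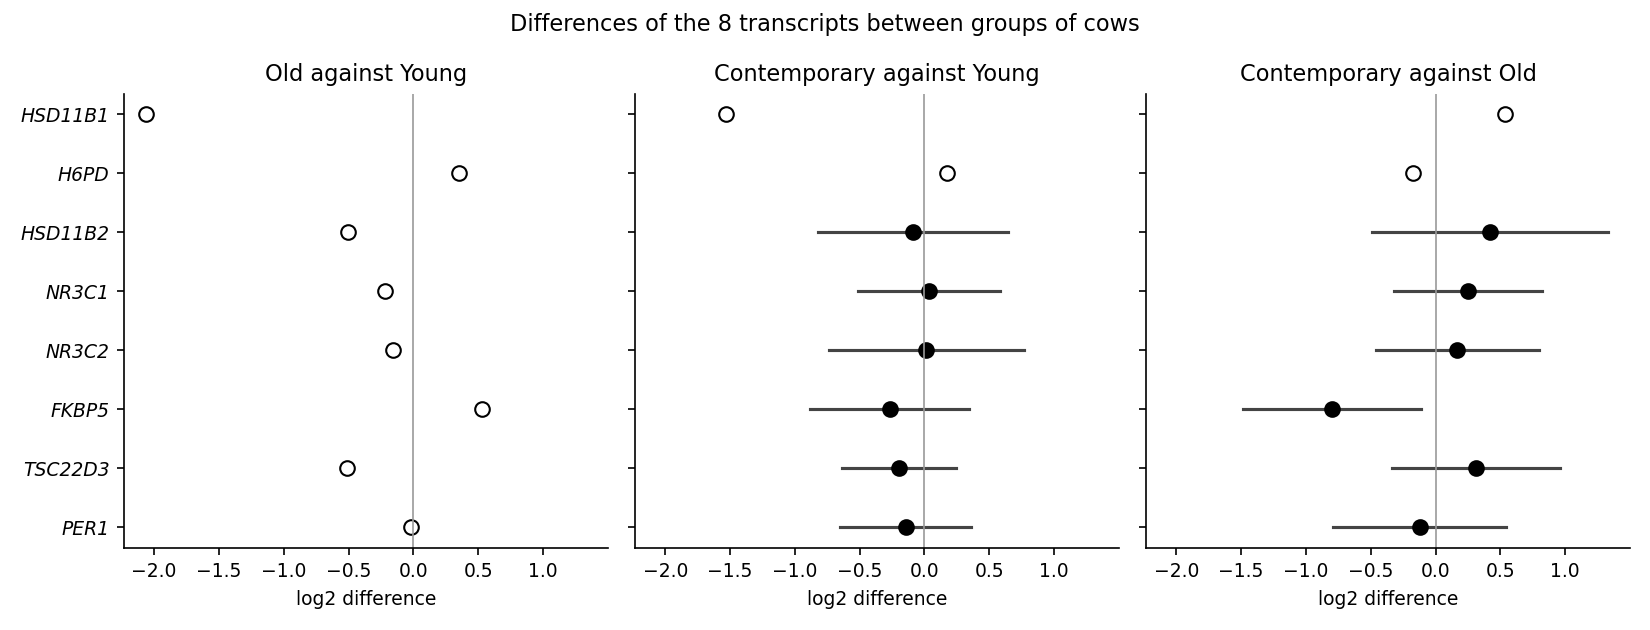
Difference in mean log2 level of each of the 8 transcripts in the 3 comparisons of groups of cows (horizontal axis, log2; positive values are higher in the group named first). Filled points carry the 95% confidence interval of limma (bars), and open points are values with no interval: all of Old against Young, HSD11B1, and H6PD, which was too dim. Among the intervals drawn, only that of FKBP5 in Contemporary against Old, from -1.49 to -0.12, does not reach 0, and -0.49 was its value without Contemporary 1128.

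Whether cows with more HSD11B1 than their own group also had more of its partners was asked over the 11 cows compared. Group means were removed first. This takes out the difference between groups, but the choice of the gene also favours a low Old cow such as 2258. The values of r and p here are therefore a description. The group mean was missed most by Old 2258, at -1.68, and Contemporary 1068, at -0.93. FKBP5 had the strongest relation of the 7 genes, and it was inverse (Pearson r = -0.65, exact permutation p = 0.068, adjusted p = 0.476; Spearman rank correlation -0.50, permutation p = 0.198, adjusted p = 0.568). It rested on the cows farthest from the median: r was -0.48 without Old 2258 alone and 0.01 without both Old 2258 and Contemporary 1068. In the 8 cows of slide 2, r was -0.67 (exact permutation p = 0.111). PER1 had a positive r of 0.61 (permutation p = 0.149, adjusted p = 0.522) and a Spearman rank correlation of 0.42 (permutation p = 0.269, adjusted p = 0.568). For PER1, r was 0.90 without the 2 cows farthest from the median, 0.49 in slide 2 (exact permutation p = 0.417) and 0.02 without Old 2258 alone. The other 5 genes had r between -0.16 for NR3C1 and 0.48 for HSD11B2, and none of the 7 relations passed after adjustment. HSD11B2 had an r of -0.35 without the same 2 cows and 0.70 in slide 2. Slide 1 held too few cows for a value of its own.

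The transcripts most like HSD11B1 over all 12 arrays were sought among the 18656 well above background on every array, of which 15459 carried a gene name. The arrays share the differences between groups that chose HSD11B1, so likeness is a description. RDH10, which makes retinaldehyde from retinol, was first with r = 0.93, and its mean level was 1.17 in Young, 0.66 in Contemporary and 0.05 in Old. STAG3, a cohesin subunit known from meiosis, had r = 0.92. FARP1 and ALOX12, the latter a lipoxygenase of arachidonic acid, each had r = 0.90. FCER1A, a chain of the IgE receptor of mast cells and basophils, had 0.89. SMPDL3B and SMPDL3A, related phosphodiesterases, had 0.89 and 0.88, and both had lower means in Contemporary and in Old than in Young. APPL2 and TNMD had 0.89 and 0.87, and these are 9 of the 10 named transcripts with the highest r. Old 2258 took a large part in these values, as ALOX12 had a level of -7.18 in this cow beside an Old mean of -4.85. A level this low is close to background and so less certain. Without Old 2258, r was 0.88 for RDH10, 0.80 for ALOX12 and 0.72 for TNMD. Within groups over 11 cows, with Old 2258 again included, r was 0.93, 0.96 and 0.93.

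The named transcripts most opposed to HSD11B1 were SPRYD7 (r = -0.92), NPFF, a neuropeptide precursor (-0.88), COL25A1, a transmembrane collagen (-0.86), EIF3G, a subunit of a translation initiation factor (-0.86), and ADORA1, an adenosine receptor (-0.86). ADORA1 had a mean level of -6.95 in Young, -6.07 in Contemporary and -5.34 in Old, and of -3.56 in Old 2258. Without Old 2258 its r was -0.69, while that of SPRYD7 was -0.86.

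**Figure D3:**
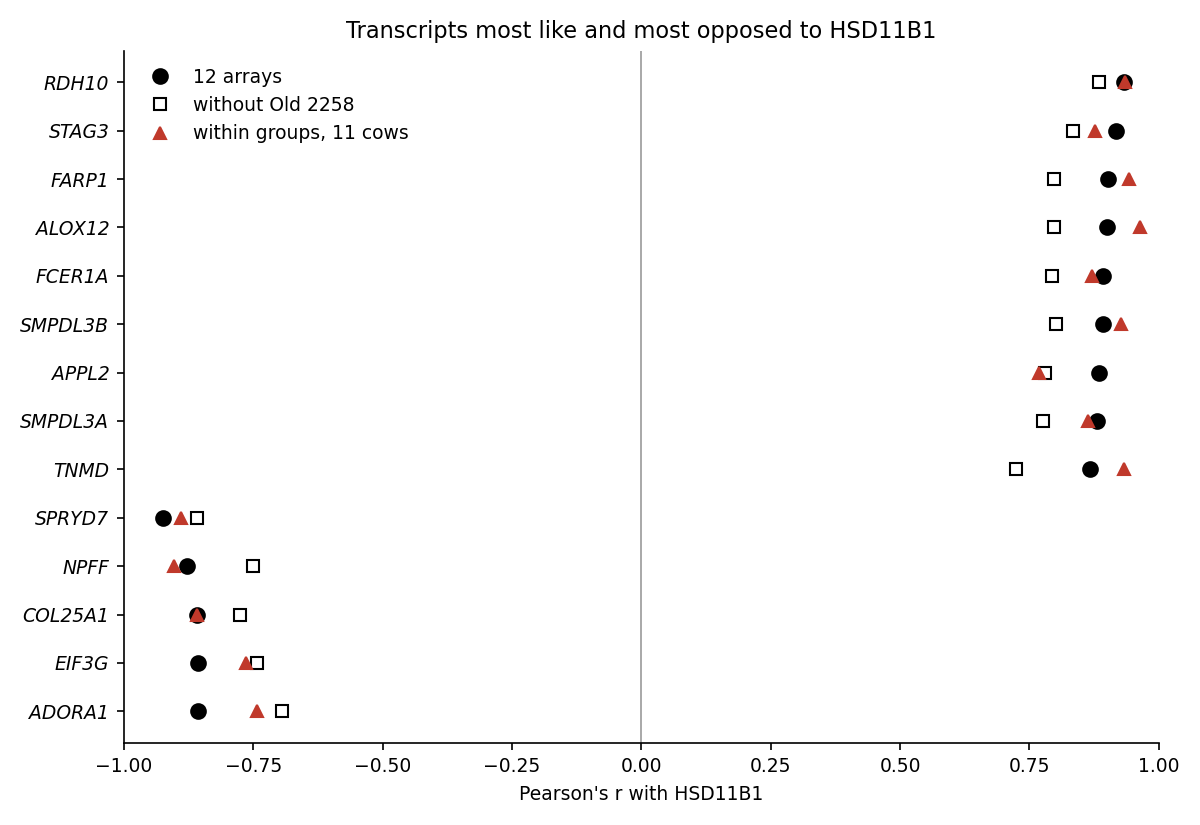
Pearson's r with HSD11B1 (horizontal axis, no unit) for 9 of the 10 named transcripts most like it and the 5 most opposed to it, over 12 arrays (filled circles), without Old 2258 (open squares) and within groups over 11 cows (triangles). RDH10 had r = 0.93 over 12 arrays and 0.88 without Old 2258, and for TNMD the r went from 0.87 to 0.72.

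Other genes around glucocorticoid action were grouped into lists, and limma called 0 genes of any list in any comparison. The median log2 difference over all transcripts tested was 0.01 for Old against Young, -0.02 for Contemporary against Young and -0.04 for Contemporary against Old, and the share with a positive difference was 51.7%, 45.4% and 43.6%. Because Old 2258 stood apart, values without it, chosen after seeing the data, stand beside many of the list results that involve Old. Extremes are those with all cows, and for other genes a range is given over leaving out each cow. Of 18 other glucocorticoid target genes, 17 were tested. Between Old and Young 11 had a positive and 6 a negative difference (median 0.24), between Contemporary and Young 6 and 11 (median -0.04), and between Contemporary and Old 6 and 11 (median -0.20). Without Old 2258, 8 were positive and 9 negative between Old and Young (median -0.01), and between Contemporary and Old 4 and 13 (median -0.08). The balance between Old and Young thus rested on that cow. The extremes were DUSP1, a phosphatase of MAP kinases, at 0.71 (95% confidence interval -0.97 to 2.39) between Old and Young and 0.24 without Old 2258, and CRISPLD2, a secreted protein, at -0.45 (-0.92 to 0.03), with every Old cow below every Young cow and a range of -0.53 to -0.30 over leaving out each cow. RGS2, a regulator of G protein signalling, differed by -1.09 between Contemporary and Old, but by -0.12 without Old 2258. Its levels were 5.90 in Old 2258 and 4.10 in Old 0234, beside 0.90 and 1.03 in Old 0233 and 0245. ANGPTL4, an inhibitor of lipoprotein lipase, differed by 0.80 between Contemporary and Old, and by 0.53 without Old 2258.

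The chaperones that fold and carry the receptor, such as HSP90, were all 11 tested. Of these 8 had a positive difference between Old and Young (median 0.15), 9 between Contemporary and Young (0.09) and 4 between Contemporary and Old (-0.07). Without Old 2258 the medians that involve Old were 0.04 and 0.03. DNAJB1 had the highest difference between Old and Young, at 0.60, or 0.21 without Old 2258, and ST13 the lowest, at -0.21 (range -0.31 to -0.13 over leaving out each cow). All 11 receptor coregulators were tested too, with 8 positive between Old and Young (median 0.09), 3 between Contemporary and Young (-0.08) and 3 between Contemporary and Old (-0.18). Without Old 2258, 10 were positive between Old and Young (median 0.10), and 1 between Contemporary and Old (-0.24). NCOA3 was the extreme in both comparisons that involve Old, at 0.32 against Young (0.21 without Old 2258, where SMARCA4 was higher at 0.29) and, from Contemporary, -0.56 against Old (95% confidence interval -1.11 to -0.0032, adjusted p = 0.9116). These ranged from 0.18 to 0.47 and from -0.71 to -0.40 over leaving out each cow.

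Of the 10 genes of cortisol synthesis, binding and clearance, 6 were bright enough to be tested. The medians were -0.10 between Old and Young, 0.20 between Contemporary and Young and 0.26 between Contemporary and Old, and those that involve Old were 0.08 and -0.01 without Old 2258. ABCB1, which exports cortisol from cells, had levels of 3.00, 1.91 and 2.26 in Contemporary 1068, 1128 and 1129 and between 1.12 and 1.63 in the Old cows. All 3 Contemporary cows were thus above all Old cows, a separation whose share over all transcripts is not given. The log2 difference of 0.97 (95% confidence interval 0.31 to 1.62) did not pass in limma (adjusted p = 0.9116). It ranged from 0.66 to 1.21 over leaving out each cow. Contemporary 1111, not compared, had the lowest level of all 12 cows, 0.71. The 10 genes that supply NADPH and glucose 6-phosphate had medians of 0.00, 0.06 and 0.22 in the same order of comparisons, the last being 0.13 without Old 2258. Among them POR was lowest in Old against Young, at -0.32, and highest in Contemporary against Old, at 0.38. The first was -0.09 without Young 1069, and the second ranged from 0.24 to 0.57 over leaving out each cow.

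Of the 12 other hydroxysteroid dehydrogenases, 11 were tested, with medians of 0.00 between Old and Young, -0.01 between Contemporary and Young and -0.13 between Contemporary and Old, or 0.04 and -0.10 for those that involve Old without Old 2258. HSD17B13, an enzyme of lipid droplets, stood apart from its list in Contemporary cows. Its level was -0.07 in 1068, 0.95 in 1128 and 3.29 in 1129, beside -4.07 to -0.61 in Young and -3.60 to -2.33 in Old. Every Contemporary cow was therefore above every Old and every Young cow, but the share of all transcripts that separate in this way is not given. The log2 difference was 4.25 from Old (95% confidence interval 2.47 to 6.03, adjusted p = 0.5415) and 3.38 from Young (1.11 to 5.65, adjusted p = 0.9999), and neither passed. They ranged from 3.30 to 4.98 and from 2.43 to 4.11 over leaving out each cow. HSD17B6 had the lowest difference of the list between Old and Young, at -1.18 with overlapping groups. It was -0.61 without Old 2258, where HSD17B13, at -0.78, was lower.

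Among 9 genes linked to the control of HSD11B1, 7 were tested, and the medians were -0.02 between Old and Young, 0.00 between Contemporary and Young and 0.15 between Contemporary and Old, or -0.05 and 0.21 for those that involve Old without Old 2258. The cytokine gene IL1A was an extreme in all 3 comparisons, at -0.82, 0.86 and 1.68, with overlapping groups each time. Each value depended on single cows: the first was -0.05 without Young 1069 and -1.26 without Old 2258, and without Contemporary 1068 the others were 0.11 and 0.93. PTGS2, which makes the precursor of prostaglandins, differed by -0.87 between Contemporary and Young and by -0.85 between Contemporary and Old. These were -1.85 and -1.83 without Contemporary 1128, and -0.37 and -0.35 without Contemporary 1068. TNF differed by 0.53 between Old and Young, but by -0.05 without Old 2258.

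The list of 20 uterine genes tied to conceptus elongation held the widest differences between Old and Young. Of 17 tested, 7 were positive and 10 negative (median -0.18), and the medians of Contemporary against Young and against Old were 0.07 and -0.07. Without Old 2258, 10 were positive and 7 negative between Old and Young (median 0.05), and 4 and 12 between Contemporary and Old (median -0.22). LPL, which releases fatty acids from lipoproteins, had levels of -2.95 in Old 0233, -0.75 in 0234, -2.32 in 0245 and 0.82 in 2258, above all Young cows, which lay between -5.13 and -3.39. The difference was 2.78 (95% confidence interval 0.96 to 4.60, adjusted p = 0.9994), and 2.07 without Old 2258. IGFBP1, a binding protein of insulin-like growth factors, had levels of -1.05, -2.55, -0.68 and -7.27 in Old 0233, 0234, 0245 and 2258, and between -1.88 and 1.08 in Young. Its difference of -2.48 (95% confidence interval -5.69 to 0.73) was -1.02 without Old 2258, the cow with the least HSD11B1. IGFBP1 was well above background on 11 of 12 arrays, so its lowest level, that in Old 2258, is less certain. Between Contemporary and Young IGFBP1 differed by -2.29 (-4.40 to -0.18, adjusted p = 0.9999), and by -1.40 without Contemporary 1068. The clock genes other than PER1 had medians of -0.04, -0.10 and 0.08 in the 3 comparisons, or 0.02 and 0.0045 for those that involve Old without Old 2258, with NFIL3 at 0.86, or 0.17 without Old 2258, and CRY1 at -0.46, or -0.24 without Young 1070, as the extremes of Old against Young.

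**Figure D4:**
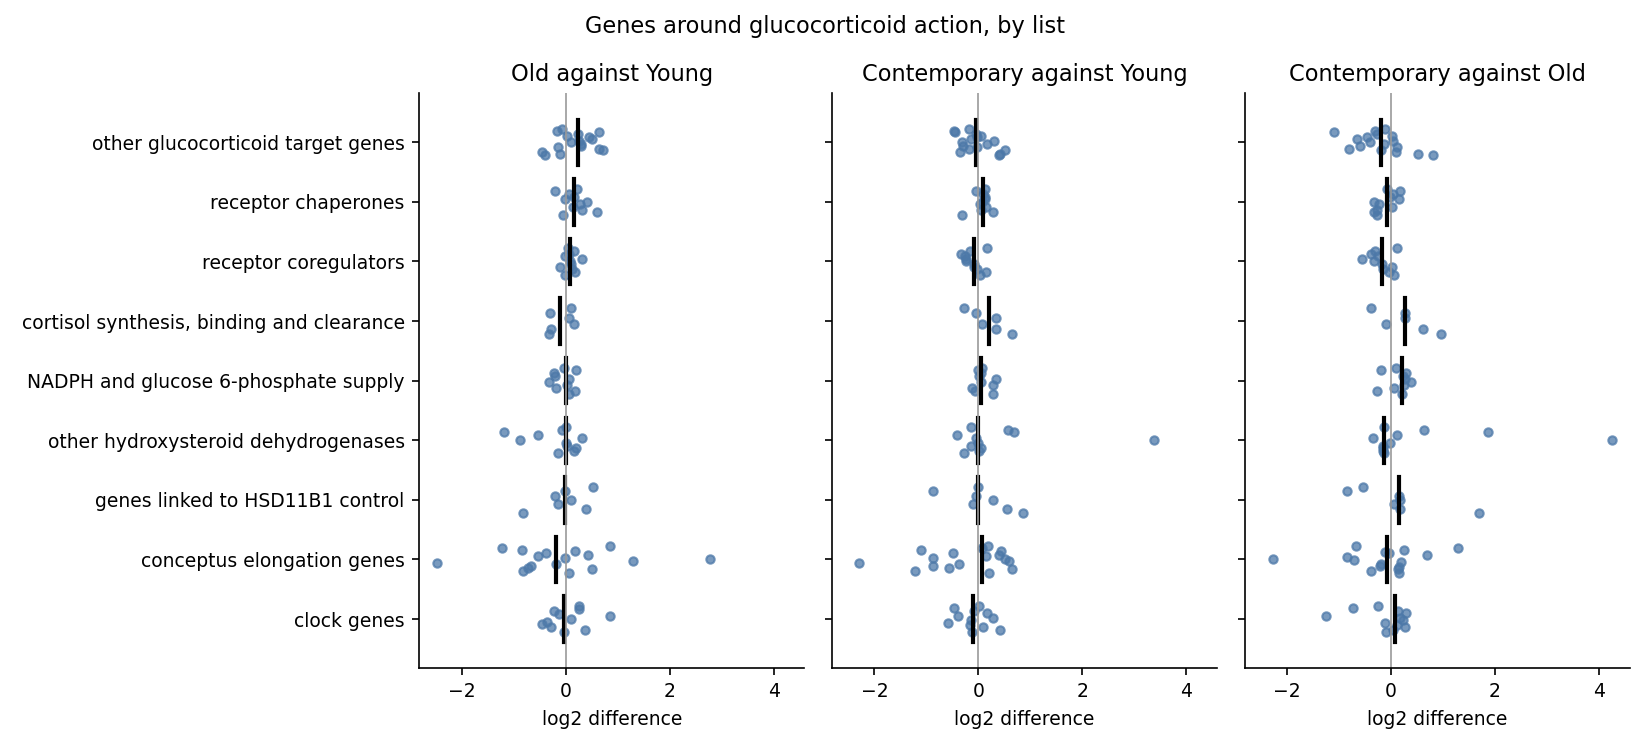
Log2 difference of each gene of the 9 lists around glucocorticoid action (horizontal axis) in the 3 comparisons. Points are genes tested in limma and black bars are list medians. The lowest and highest medians are both in Contemporary against Old. They are -0.20 for the other target genes and 0.26 for cortisol synthesis, binding and clearance, or -0.08 and -0.01 without Old 2258. The other target genes lie at 0.24 in Old against Young and -0.01 without Old 2258. HSD17B13 stands apart at 4.25 in Contemporary against Old.

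The biopsies were checked against markers of the cells that endometrium holds. All 9 epithelial and all 8 stromal markers were well above background on all 12 arrays. CLDN3 had the highest intensity of the epithelial markers on 11 of them, and COL3A1 of the stromal markers on 12, although intensities of different probes do not rank transcripts by abundance. Of the leukocyte markers MS4A1 was well above background on 1 of 12 arrays. In a bulk biopsy fewer cells of a type and less RNA per cell cannot be told apart. The mean level of the 8 smooth muscle markers was 0.61 in Old 0233, 4.14 in 0234, 1.48 in 0245 and 5.73 in 2258. It was between 0.17 and 1.74 in Young and between 0.81 and 1.35 in Contemporary. Smooth muscle markers were thus high in Old 0234 and 2258, all 8 of 8 had a higher mean in Old than in Young (median 2.02, and 1.16 without Old 2258), and ACTA2 had the highest intensity of them on every array. Their summed intensity, in multiples of the 75th percentile, was 1043 in Old 2258, 367.7 in Old 0234 and between 24.2 and 66.5 in the Young cows.

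Old 2258, with the lowest HSD11B1, also had the lowest mean of the epithelial markers, -0.09, while the other Old cows had 2.51 in 0233, 1.76 in 0234 and 2.81 in 0245, and the Young cows had between 0.85 and 2.70. Old 0234, with high smooth muscle markers, had the same HSD11B1 level of -5.01 as Old 0233, where they were low. Old 0233 had epithelial and smooth muscle means within the range of the Young cows, as had Old 0245 but for an epithelial mean of 2.81, and the HSD11B1 of both was below that of every Young cow. Their stromal means, 2.61 and 2.53, were also below those of every Young cow, the lowest being 2.69. Young 1069, with the lowest epithelial mean of its group, had an HSD11B1 level of -3.61. The epithelial markers were lower in mean in Old than in Young for 8 of 9 genes (median -0.29), but higher for 8 of 9 without Old 2258 (median 0.32). The stromal markers were lower in mean in Old than in Young for 8 of 8 genes (median -0.27, and -0.40 without Old 2258) and higher in Contemporary than in Old for 8 of 8 (median 0.50). The smooth muscle markers were lower in Contemporary than in Old for 8 of 8 (median -1.97, and -1.09 without Old 2258). The part of these markers in the differences of HSD11B1, FKBP5, RGS2, LPL and IGFBP1 was not tested.

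**Figure D5:**
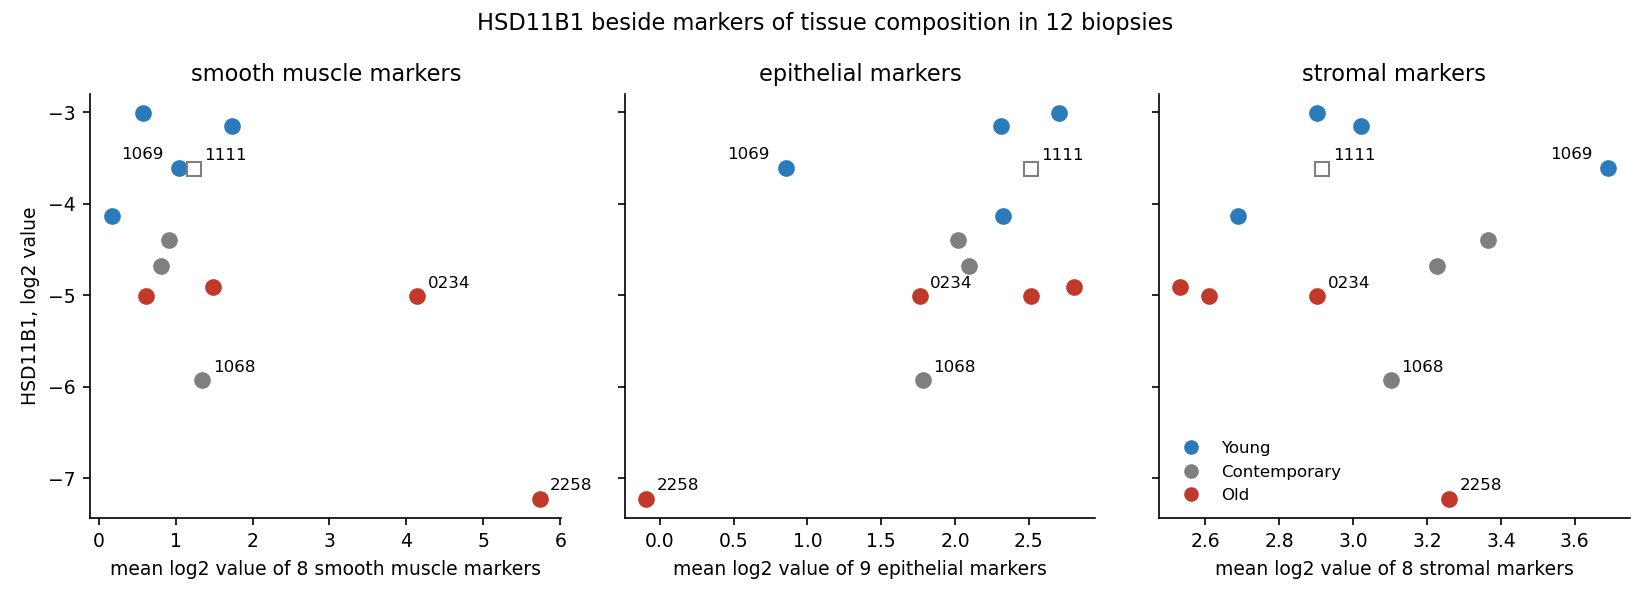
Level of HSD11B1 in each of the 12 biopsies (vertical axis, log2) against the mean log2 level of the smooth muscle, epithelial and stromal markers (horizontal axes). Circles are cows, coloured by group, and the open square is Contemporary 1111. Old 2258 stands at the lower end of HSD11B1 with the highest smooth muscle mean, 5.73, and the lowest epithelial mean, -0.09, while Old 0234, with a smooth muscle mean of 4.14, lies level with Old 0233 and 0245.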

How the data were processed

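The authors deposited Feature Extraction 10.7.3.1 output for each array, with the Cy-3 intensity of every spot, corrected for background and not normalised between arrays. From it, 66 probes flagged as outliers were dropped, log2 was taken, the 75th percentile of the array subtracted, and probes averaged per transcript. Names came from the files and from RefSeq accessions. Groups were compared by limma 3.58.1 (R 4.3.3; two-sided, Benjamini-Hochberg at 0.05) over all transcripts of which a probe was well above background throughout 1 group compared, and by FCROS, coded from its published description (trim 0.25, f-values 0.025 and 0.975, fold 1.5). Single values had exact permutation tests over cows, and correlations were permuted within groups (all 3456 orders). The number of arrays limits the precision. Members and lists were chosen with earlier results of these data known. From each list the genes with the highest and lowest difference in each comparison could be named, and for likeness the 10 highest and 5 lowest r, of which 1 is not reported. Alternatives were quantile normalisation, median centring, normexp (offset 50), the brightest probe, no filter on dim probes, the slide as a block, slide 2 alone, all groups in 1 fit, array weights, cow 1111 included and each cow left out. Slide 1 alone, lists without Old 2258 and named list genes without each cow were added after seeing the data. CEBPD, CYP21A2, CEBPA, CEBPB, LGALS15, PER3 and ACTG2 were not analysed here.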

Additional observations from a re-analysis of the deposited data

Results flagged for a closer look

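HSD11B1 in Old 2258, at -7.22, lay far from the other 3 Old cows, with a gap to the nearest of them of 0.954 of the range of the group. The same Old values had chosen HSD11B1, a choice that favours a low Old cow, and probe 2, at -8.53, was not well above background in this cow. The mean of the endothelial markers in Young 1127, at -2.04, lay as far from the other Young cows, with a gap of 0.95 of the range. In all, 42 groups of 4 cows were examined in this way and 2 stood out, while chance alone picks about 1 in 20. Contemporary 1111, which entered no comparison, had levels above all 4 Young cows for FKBP5 (3.03), TSC22D3 (-3.65) and PER1 (-0.15), the 3 target genes among the members. Other glucocorticoid target genes named above did not share this. CRISPLD2 in cow 1111, at 3.99, was below all 4 Young cows, the lowest of which had 4.26. DUSP1, SGK1, ANGPTL4 and RGS2 lay within the range of the Young cows. For FKBP5 the highest Young level was close, 3.01 in 1072. By 1 of its 2 probes Young 1072, at 3.06, was above cow 1111, at 3.02.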

How the results depend on the processing

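HSD11B1 kept its direction in Old against Young (-2.10 to -0.81) and Contemporary against Young (-1.53 to -0.75) under all 9 settings tried for each. This is no further support, since the gene was chosen with every Old cow below every Young cow. The 3 Contemporary cows compared did not overlap the Young cows either, so leaving out a cow or a slide could not change a sign. The lowest size in Old against Young was that of normexp, -0.81, and the cause was not tested. Leaving out a cow gave -2.28 to -1.50 in Old against Young and -1.83 to -1.06 in Contemporary against Young. Of 194 tested values of the other members under the alternatives 0 reached an adjusted p of 0.05 (lowest 0.132), and 25 changed sign. The counts called, 0 by limma, were 1300 in Old against Young, 1113 in Contemporary against Young and 1422 in Contemporary against Old with FCROS. The f-value limits of FCROS largely fix the share it calls, so nothing is read from its counts. In Contemporary against Young the limma counts were 1 with quantile normalisation, 2 with all 3 groups in 1 fit, 1 with array weights, 4 with cow 1111 included and 0 to 1 without each cow. In Contemporary against Old they were 26 with array weights, 2 with cow 1111 included and 0 to 1 without each cow. Signs changed with normexp for NR3C2 (Contemporary against Young -0.0298, against Old -0.0425). With the slide as a block and with slide 2 alone, Contemporary against Young was -0.0319 for NR3C1, -0.0442 for NR3C2 and 0.0349 for PER1, and Contemporary against Old was 0.0128 for PER1. With array weights, HSD11B2 was 0.24 against Young and NR3C2 -0.13 against Old. With cow 1111 included, Contemporary against Young was -0.0377 for NR3C1, -0.13 for NR3C2 and 0.0214 for TSC22D3. Leaving out each cow, Contemporary against Young ranged from -0.33 to 0.12 for HSD11B2, -0.14 to 0.19 for NR3C1, -0.21 to 0.28 for NR3C2 and -0.48 to 0.0402 for FKBP5, and Contemporary against Old from -0.35 to 0.0128 for PER1. The r of HSD11B1 with H6PD was -0.0317 with quantile normalisation, and without Old 2258 r was -0.17 with H6PD, -0.16 with HSD11B2, 0.10 with NR3C1 and -0.25 with TSC22D3. The causes of these changes were not tested. Among the members, signal over background limits H6PD and, in Old 2258 and Contemporary 1068, HSD11B1.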

Other observations

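Contemporary 1111, whose HSD11B1 was above that of the other 3 Contemporary cows, had the highest HSD17B13 level of the 12 cows, 3.54, above the 3.29 of Contemporary 1129.

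The mean level of 5 endothelial markers was -1.36 in Old, -1.51 in Young and -1.05 in Contemporary, and that of 6 leukocyte markers was -2.93, -3.02 and -2.73. The 3 erythrocyte markers had means of -0.85 in Old, -0.86 in Young and 0.09 in Contemporary, where they were highest in cow 1129, at 0.72.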
